A study of Mus musculus with 2 samples.

Results

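RNA of genes that set the pace of the G1 phase of the cell cycle, or the exit from it, was followed in embryonic mouse neural tube. They are the 3 D-type cyclins Ccnd1, Ccnd2 and Ccnd3, their partner kinases Cdk4 and Cdk6, the inhibitors Cdkn1a and Cdkn1b of the Cip/Kip family, the inhibitors Cdkn2c and Cdkn2d of the INK4 family, and the antiproliferative gene Btg2. They were found in the tables by symbol and make up 10 of the 43346 mouse genes in the tables, with 44 annotated transcripts. All samples form 1 group: total RNA of neural tube at embryonic day 13.5, strain B6NCrl, male and female embryos pooled, 10 ng of RNA and added spike-in RNA per library. The labels name biological replicates 1 and 2 and give both the same donor, and they do not say whether the embryos came from separate litters, so the spread between the libraries may be partly technical. With no second condition, every comparison is between genes, between transcripts or between these 2 libraries.

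In a cycling cell, D-type cyclins bind Cdk4 or Cdk6, and the complexes phosphorylate the retinoblastoma proteins, which frees E2F factors to switch on genes of DNA synthesis. INK4 proteins bind the kinases and keep the cyclins off, whereas Cip/Kip proteins bind cyclin-kinase complexes and block above all those of Cdk2. In the neural tube, progenitors in the ventricular zone divide next to the lumen, and cells that leave the cycle move outward and become neurons. Ccnd1 and Ccnd2 are known from progenitors, Cdkn1b, Cdkn1c and Cdkn2d from cells leaving or out of the cycle, and Btg2 from progenitors about to make neurons.

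The tissue label was set beside marker genes. All 12 markers of postmitotic neurons and 11 of 12 markers of neural progenitors were detected, at 1 TPM (an abundance corrected for transcript length and scaled to a fixed library sum) or more in both libraries. The highest neuronal marker was the tubulin gene Tubb3, at 1245.42 and 1174.76 TPM in replicates 1 and 2. The highest progenitor marker was the radial glial gene Fabp7, at 2060.82 and 1934 TPM. Markers of blood, muscle, cartilage and other tissues were present too, and no marker gene of the 11 lists was at 0. The blood marker Hba-a2 was above Tubb3 and Fabp7, at 4334.75 and 4275.4 TPM. All 7 endothelial and all 7 microglial markers were detected, as were 5 of 8 of surface ectoderm and 61.8% of protein-coding genes. Detection alone thus does not single out neural tube. Library totals were 34125110 and 22311849 estimated counts, and the common biological coefficient of variation between the libraries was 9.21%. In bulk tissue, fewer cells of a type and less RNA per cell cannot be told apart.

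Sequences are given first for the starts and splice borders on which the transcript values below turn. RefSeq promoter windows on GRCm38.p6 were at hand for 8 of the 10 genes, 11 windows in all. Each window printed is the 250 bases before an annotated start, 5′ to 3′ on the gene's strand. Capitals mark matches, on either strand, to the TATA box motif TATAAA, the box motif CCAAT, the GC box motif GGGCGG, the E2F motif TTTNGCGC, the Myc motif CACGTG or the proneural motif CAGCTG, and a match is letters only, not a shown binding site. Ccnd3 and Cdkn1a each have 2 annotated starts on the plus strand of chromosome 17, and these windows let the starts be compared. The distal Ccnd3 window is chr17:47504801-47505050 and the proximal one chr17:47593217-47593466. The distal Cdkn1a window is chr17:29090729-29090978 and the proximal one chr17:29093519-29093768.
Ccnd3 distal: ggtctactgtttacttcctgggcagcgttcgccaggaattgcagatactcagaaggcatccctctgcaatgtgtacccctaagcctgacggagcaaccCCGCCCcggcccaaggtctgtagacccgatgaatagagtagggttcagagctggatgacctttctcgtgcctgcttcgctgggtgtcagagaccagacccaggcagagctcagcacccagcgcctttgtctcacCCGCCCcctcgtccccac
Ccnd3 proximal: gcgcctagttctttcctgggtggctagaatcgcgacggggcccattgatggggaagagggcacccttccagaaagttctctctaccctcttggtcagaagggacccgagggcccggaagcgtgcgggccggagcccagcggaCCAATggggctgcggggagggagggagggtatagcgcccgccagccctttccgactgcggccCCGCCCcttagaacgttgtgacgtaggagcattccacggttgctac
Cdkn1a distal: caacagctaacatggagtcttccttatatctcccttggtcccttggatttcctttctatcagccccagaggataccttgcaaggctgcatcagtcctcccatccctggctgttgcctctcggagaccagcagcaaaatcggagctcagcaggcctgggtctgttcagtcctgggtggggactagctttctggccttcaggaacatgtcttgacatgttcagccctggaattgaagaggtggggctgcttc
Cdkn1a proximal: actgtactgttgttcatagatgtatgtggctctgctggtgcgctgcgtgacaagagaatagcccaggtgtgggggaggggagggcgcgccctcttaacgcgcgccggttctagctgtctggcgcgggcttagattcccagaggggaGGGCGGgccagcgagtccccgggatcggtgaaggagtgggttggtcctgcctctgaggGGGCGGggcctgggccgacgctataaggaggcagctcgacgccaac
The proximal Ccnd3 window holds a CCAAT match at positions -108 to -104 from the start, the distal one does not, and both hold GGGCGG on the minus strand. The distal Cdkn1a window has no match at 54.0% G and C, and the proximal one has 2 GGGCGG matches at 64.8% G and C. CCAAT occurs in 33.8% of all 32851 windows of this length and GGGCGG in 32.7%.

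The window of Cdk4, the gene of highest level, is shown for its matches to CACGTG, the sequence that Myc proteins bind as dimers with Max. It is chr10:127063285-127063534 on the plus strand.
Cdk4: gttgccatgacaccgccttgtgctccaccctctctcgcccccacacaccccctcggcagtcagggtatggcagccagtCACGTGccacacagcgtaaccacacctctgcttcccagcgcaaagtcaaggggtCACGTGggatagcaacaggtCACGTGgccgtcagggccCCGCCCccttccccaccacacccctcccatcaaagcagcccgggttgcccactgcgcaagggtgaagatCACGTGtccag
It holds 4 CACGTG matches, the first at -172 to -167 and the last at -11 to -6. One match or more occurs in 6.02% of windows, and 4 or more in 7 of 32851 windows (0.0213%). Cdk4 was singled out for them after the windows had been searched. Cdk6 was the other gene with a CACGTG match, and none of the 11 windows held TTTNGCGC, which 1.13% of all windows hold.

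**Figure D1:**
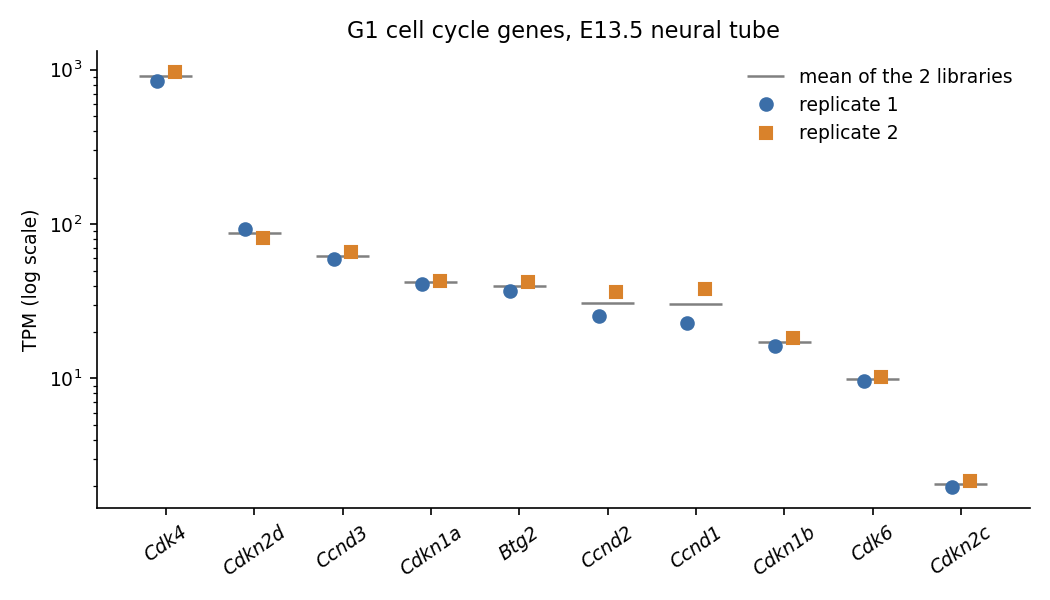
Level of each G1 gene in TPM (vertical axis, log scale) in replicate 1 (circles) and replicate 2 (squares), with the mean of the 2 libraries as a grey line, genes ordered by mean. In deposited TPM, Cdk4 stands near 909, 10.4 times the next gene, and Cdkn2c is lowest at 2.08.

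All 10 genes were detected in both libraries, against 61.8% of protein-coding genes. Their median of mean TPM was 35.2, beside 18.5 for detected protein-coding genes. The 10 genes were chosen with earlier results of these data known, so both comparisons are description only. As the plot of levels by gene shows, the order of mean TPM was Cdk4, Cdkn2d, Ccnd3, Cdkn1a, Btg2, Ccnd2, Ccnd1, Cdkn1b, Cdk6 and Cdkn2c. In 7 of the 9 neighbouring pairs, the deposited TPM values of the libraries did not overlap. Of these 7 pairs, Ccnd1 above Cdkn1b did not hold with coding transcripts only, as given below. Cdkn1a and Btg2 overlapped, and Ccnd2 and Ccnd1 overlapped and changed places between the libraries.

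Of the D-type cyclins, Ccnd3 had the highest level. Ccnd3 (ENSMUSG00000034165.12, chromosome 17, 47505051 to 47599691, GRCm38) gave 59.02 TPM in replicate 1 and 65.85 in replicate 2, or 62.4 ± 4.83 (SD, n = 2). Ccnd2 (ENSMUSG00000000184.9, chromosome 6, 127125162 to 127152193) gave 25.47 and 36.32 TPM, or 30.9 ± 7.67. Ccnd1 (ENSMUSG00000070348.4, chromosome 7, 144929931 to 144939925) gave 22.73 and 37.97 TPM, or 30.4 ± 10.8. Both Ccnd3 values were above all 4 values of Ccnd1 and Ccnd2, and replicate 2 was the higher library for each cyclin. As a share of the summed D cyclin TPM, Ccnd3 held 55.0% and 47.0%, Ccnd2 23.8% and 25.9%, and Ccnd1 21.2% and 27.1%.

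The near equality of Ccnd1 and Ccnd2 in TPM depended on 1 short transcript. Ccnd1-201, the coding transcript of 3740 bases, held 54.91% and 45.14% of the gene's TPM, and Ccnd1-202, a model of 470 bases annotated as a retained intron, held 45.09% and 54.86%. In counts the split was different: Ccnd1-202 had 86.01 and 110.75 counts, which is 7.72% and 11.0% of the gene's counts, while Ccnd1-201 had 1027.72 and 894.33. The Ccnd1-202 counts are uncertain, with posterior SDs of 13.0% and 10.6% of the count. Of its 470 bases, 375 lie in coding exons of Ccnd1-201 and 95 in an intron. The border where this intron meets the next coding exon is chr7:144938078-144938127 on the minus strand, shown because a read must reach across it to carry both kinds of sequence. Capitals mark the coding exon.
Ccnd1-202 border: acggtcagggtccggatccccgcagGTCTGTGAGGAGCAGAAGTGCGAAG
With only coding transcripts summed, Ccnd1 stood at 12.48 and 17.14 TPM, or 14.8 ± 3.30 (SD, n = 2), below Ccnd2 in both libraries. The ratio of Ccnd1 to Ccnd2 was then 0.490 and 0.472, instead of 0.892 and 1.05 from all transcripts. With the gene's counts divided by the length of its longest coding transcript, the ratio was 0.531 and 0.530. With coding transcripts only, Ccnd1 was also below Cdkn1b, at 16.3 and 18.33 TPM, in each library, though their ranges overlapped. Over the longest coding transcript, Ccnd1 stood at 15.3 and 21.8, above Cdkn1b at 10.8 and 12.3. These treatments of length were added after the transcript values had been seen.

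**Figure D2:**
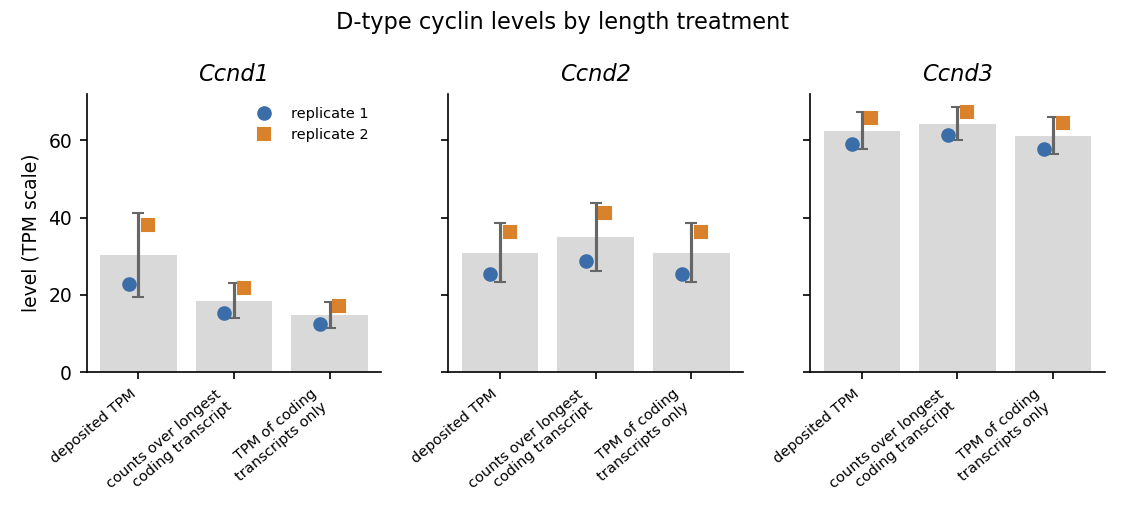
Levels of the 3 D-type cyclins (vertical axis, on the TPM scale) from the deposited TPM, from counts over the longest coding transcript, and from coding transcripts only, with bars for the mean, error bars for the SD of 2 libraries, and points for each library. Ccnd1 goes from 30.4 to 18.5 and 14.8, whereas Ccnd3 lies between 61.1 and 64.3 in all 3.

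Ccnd2 and Ccnd3 moved by less than the SD between libraries under the other treatments of length, as the plot of cyclin levels by treatment shows. Ccnd2 had 1 annotated transcript, with 3227 and 2916 counts, so its level could not depend on a split between models. Ccnd3 had 21 transcripts, 13 of them above 0, and Ccnd3-205 held 94.68% and 92.57% of its TPM with 2373.12 and 1640.67 counts. Transcripts that begin within 500 bases of the proximal start of Ccnd3 held 95.92% and 93.39% of the gene's TPM, or 94.7% ± 1.79 (SD, n = 2). Those near the distal start held 2.89% and 3.02%, from 22.14 and 28.91 counts over 13 transcripts. This split is uncertain. The distal Ccnd3-215, at 16.15 counts in replicate 2, had a posterior SD of 91.3% of the count. The distal Ccnd3-201, at 0 counts in both libraries, had posterior SDs of 23.57 and 21.3 counts. By the posterior mean isoform percent, Ccnd3-205 held 84.2% in place of a mean of 93.6%.

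Cdk4 was the dominant partner kinase. Cdk4 (ENSMUSG00000006728.8, chromosome 10, 127063534 to 127067920) gave 845.42 and 972.87 TPM, or 909 ± 90.1 (SD, n = 2), from 14968 and 10824 counts. This mean is at or above that of 99.7% of protein-coding genes. Cdk6 (ENSMUSG00000040274.7, chromosome 5, 3341485 to 3531008) gave 9.57 and 10.27 TPM, or 9.92 ± 0.495, from 787 and 535 counts, with 100% of TPM on Cdk6-202. Cdk4 made up 98.9% of the summed TPM of the pair, and both Cdk4 values were far above both Cdk6 values.

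Most of the Cdk4 TPM came from transcripts not annotated as coding. Cdk4-209, a retained-intron model of 468 bases, held 40.64% and 40.63% of the gene's TPM, Cdk4-208, annotated for nonsense-mediated decay, 17.47% and 21.25%, and the coding Cdk4-205 18.72% and 17.25%. Cdk4-201, the longest coding transcript, held 8.98% and 7.83% of TPM but 22.4% and 19.7% of counts, the largest mean share of counts among the 9 transcripts. All retained-intron models together held 50.42% and 49.06% of TPM, and 32.7% and 32.4% of counts. Of the 468 bases of Cdk4-209, 443 lie in exons of Cdk4-201 and 25 in an intron. These 25 bases are in lower case in the border at chr10:127066076-127066125 on the plus strand, with the coding exon in capitals. They are the only bases of this model outside the exons of Cdk4-201. The model is also shorter, spanning 127066076 to 127067235, against 127063534 to 127067920 for Cdk4-201.
Cdk4-209 border: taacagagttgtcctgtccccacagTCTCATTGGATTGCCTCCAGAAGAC
The retained-intron share of TPM, though not shown for counts, was high in Cdk4 and Ccnd1 beside other genes. Among 5298 detected protein-coding genes with such a model, the median share was 9.19%, and 6.32% of genes had a share at or above that of Cdk4 and 6.25% one at or above that of Ccnd1. Ccnd3 stood at 2.09%. TPM divides counts by length, so short models, here of 468 bases in Cdk4 and 470 in Ccnd1, weigh more in it. In counts, the mean retained-intron share was 32.6% for Cdk4 and 9.37% for Ccnd1. Shares of counts were not ranked over other genes. With coding transcripts only, Cdk4 was at 271.36 and 288.85 TPM, and over the length of its longest coding transcript at 382.31 and 437.46. It stayed the highest of the 10 genes in both, but closer to the next gene. That gene, Cdkn2d, stood at 93.16 and 81.68 TPM with coding transcripts only, and at 105 and 92.4 over the longest coding transcript. Summed Cdk4 and Cdk6 exceeded summed D cyclins 7.97-fold and 7.02-fold in the deposited TPM, and 2.94-fold and 2.54-fold with coding transcripts only.

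**Figure D3:**
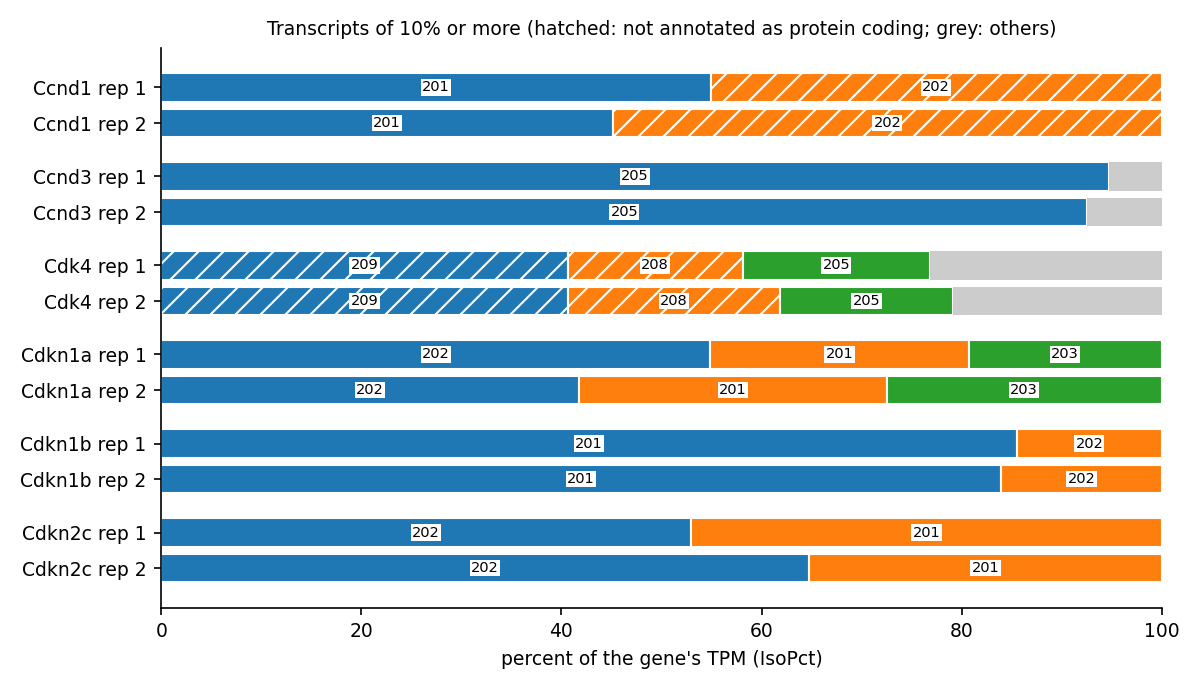
Percent of each gene's TPM (horizontal axis) held by its transcripts in each library, for the 6 genes with more than 1 transcript above 0. Numbers in the bars are transcript suffixes, hatching marks transcripts not annotated as protein coding, and grey joins all with a mean under 10%. Hatched models hold 45.09% and 54.86% of Ccnd1 and the larger part of Cdk4, and none of the other 4 genes has one of 10% or more.

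Reads of neighbours on the other strand may enter these values, since the handling of strand is not given in the sources used here. Cdk4 shares 641 exon bases with Tspan31, which was at 88.8 and 93.22 TPM. Ccnd1 shares 1100 with LTO1, at 24.46 and 24.92 TPM. Ccnd3 shares 361 with Bysl, at 24.9 and 25.07 TPM, and Ccnd2 shares 368 with 9330179D12Rik, at 0.88 and 1.41 TPM. Ccnd2, Cdk6 and Cdkn1a share 372, 368 and 273 exon bases with further annotations whose values were not used here. Without strand, reads of such pairs cannot be told apart where their exons overlap.

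Of the Cip/Kip inhibitors, Cdkn1a was above Cdkn1b. Cdkn1a (ENSMUSG00000023067.9, chromosome 17, 29090976 to 29100727), a known target of p53, gave 40.89 and 42.9 TPM, or 41.9 ± 1.42 (SD, n = 2), from 897 and 637 counts. Cdkn1b (ENSMUSG00000003031.10, chromosome 6, 134920401 to 134925513), an inhibitor known from resting cells, gave 16.3 and 18.34 TPM, or 17.3 ± 1.44, from 961 and 694 counts. In counts Cdkn1b was thus the higher and in TPM the lower, since TPM divides by transcript length. Cdkn1a held 70.8% of the summed TPM of the pair, and 69.5% over the longest coding transcripts. Over those lengths Cdkn1a stood at 24.7 and 27.8, below both Ccnd2 values and both Btg2 values, and Cdkn1b at 10.8 and 12.3, overlapping Cdk6.

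The 3 coding transcripts of Cdkn1a differed in order between TPM and counts. Cdkn1a-202, of 748 bases and from the distal start, held 54.89% and 41.76% of TPM, Cdkn1a-201, of 1910 bases and from the proximal start, 25.82% and 30.73%, and Cdkn1a-203 19.29% and 27.51%. In counts Cdkn1a-201 led with 432.37 and 342.17, against 329.43 and 166.64 for Cdkn1a-202 and 135.2 and 128.19 for Cdkn1a-203. The counts of Cdkn1a-202 and Cdkn1a-203 are uncertain, with posterior SDs of 12.2% and 24.5%, and 27.6% and 31.0%, of the count. The share of the distal start, 48.3% ± 9.28 (SD, n = 2), varied more between libraries than the proximal one, 28.3% ± 3.47. The distal Cdkn1a window printed above is the one without a match. Cdkn1b has both transcripts at the same start, and Cdkn1b-201 held 85.52% and 83.95% of its TPM and Cdkn1b-202 the remaining 14.48% and 16.05%.

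The INK4 inhibitors lay at opposite ends of the range. Cdkn2d (ENSMUSG00000096472.1, chromosome 9, 21288410 to 21291407) gave 93.16 and 81.68 TPM, or 87.4 ± 8.12 (SD, n = 2), from 2469 and 1372 counts of 1 transcript. Cdkn2c (ENSMUSG00000028551.10, chromosome 4, 109660876 to 109667189) gave 1.97 and 2.18 TPM, or 2.08 ± 0.148, from 77 and 59 counts. Cdkn2d therefore held 97.7% of the summed TPM of the pair, and was the second gene in order after Cdk4. Cdkn2c-202 held 52.96% and 64.76% and Cdkn2c-201 47.04% and 35.24% of the low Cdkn2c level, a split that is uncertain at 21.08 and 11.07 counts for Cdkn2c-201.

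The 4 inhibitors together stood at 1.42 and 1.04 times the summed D cyclins in deposited TPM, and at 1.59 and 1.23 times with coding transcripts only. Cdkn1a and Cdkn1b held 37.5% and 42.2% of the sum of these 4 inhibitors. The sum leaves out the third Cip/Kip gene, Cdkn1c, which at 230.82 and 284.52 TPM exceeded all 4 together in both libraries. These shares therefore do not give the balance of the Cip/Kip and INK4 families. Nor does the ratio to D cyclins give the balance of all inhibitors and D cyclins. Over the longest coding transcripts, the share of Cdkn1a and Cdkn1b was 24.9% and 29.8%.

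Btg2 (ENSMUSG00000020423.6, chromosome 1, 134075170 to 134079120), whose protein slows entry into S phase and binds the deadenylase that shortens mRNA tails, gave 36.85 and 42.15 TPM, or 39.5 ± 3.75 (SD, n = 2), from 2203 and 1597 counts of 1 transcript. Its mean exceeded those of Ccnd1 and Ccnd2 and its libraries overlapped with Cdkn1a. Its deadenylase partner Cnot7 was the highest of 7 related genes, at 114.53 and 124.52 TPM, and Btg4 was at 0 counts in both, which allows up to 0.109 and 0.173 TPM at 3 counts.

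The other genes of the pathway were taken from 11 lists with 54 genes, of which 51 were detected. Among other inhibitors, Cdkn1c was the highest, with the values given above, and Cdkn2a was at 0 counts, which allows up to 0.171 and 0.270 TPM. Among retinoblastoma genes, Rbl2 had the highest mean, at 17.09 and 18.78 TPM, but Rb1, at 18.8 and 17.03 TPM, was above it in replicate 1, and Rbl1 was lowest at 4.82 and 5.9. Among E2F and DP factors, Tfdp1, a DP partner of E2F proteins, was highest at 77.84 and 84.51 TPM and E2f2 lowest at 1.86 and 2.48.

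For the cyclin E step that follows the D cyclins, Cdk2 gave 16.02 and 20.2 TPM and Ccne2 9.59 and 12.49. Of the kinase that activates other cyclin-dependent kinases, Ccnh gave 77.12 and 71.62 TPM and Cdk7 10.85 and 11.08. Among genes of G1 protein turnover, the ubiquitin ligase subunit gene Skp1a was highest at 904.02 and 889.64 TPM, near the deposited TPM of Cdk4. That likeness was seen in deposited TPM only, since Cdk4 stood at 271.36 and 288.85 TPM with coding transcripts only. The deubiquitinase gene Usp2 was lowest at 6.62 and 9.57. Skp1a encodes a subunit shared by many ligases, so the level of Skp1a is not specific to G1.

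Of the Myc factors, Mycn was highest at 45.4 and 48.36 TPM and Max, the common partner, lowest at 11.24 and 9.9. In the p53 module, Trp53 was highest at 58.32 and 58 TPM and Zmat3 lowest at 6.05 and 5.74. The mitotic kinase gene Cdk1 led the later cyclins and kinases at 67.93 and 90.12 TPM, and Ccna2 was lowest at 25.02 and 33.12. Cdk5r1, which activates the neuronal kinase Cdk5, gave 65.77 and 72.63 TPM, and Cdk5r2 6.78 and 5.94.

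Between the libraries, Ccnd1 and Ccnd2 were higher in replicate 2 and Cdkn2d was lower. Values are log2 ratios of counts, replicate 2 over replicate 1, after scaling by trimmed mean of M values (TMM), with the counting error as SE. Ccnd1 gave 0.45 (SE 0.063) and Ccnd2 0.45 (SE 0.037), or 1.37-fold each, with adjusted p of 4.4e-11 and 5.8e-32 in the exact binomial test. Cdkn2d gave -0.25 (SE 0.049), or 0.842-fold, with adjusted p = 5.1e-06 in the exact binomial test. This test knows only counting noise, and differences between embryos or preparations are not in its error.

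**Figure D4:**
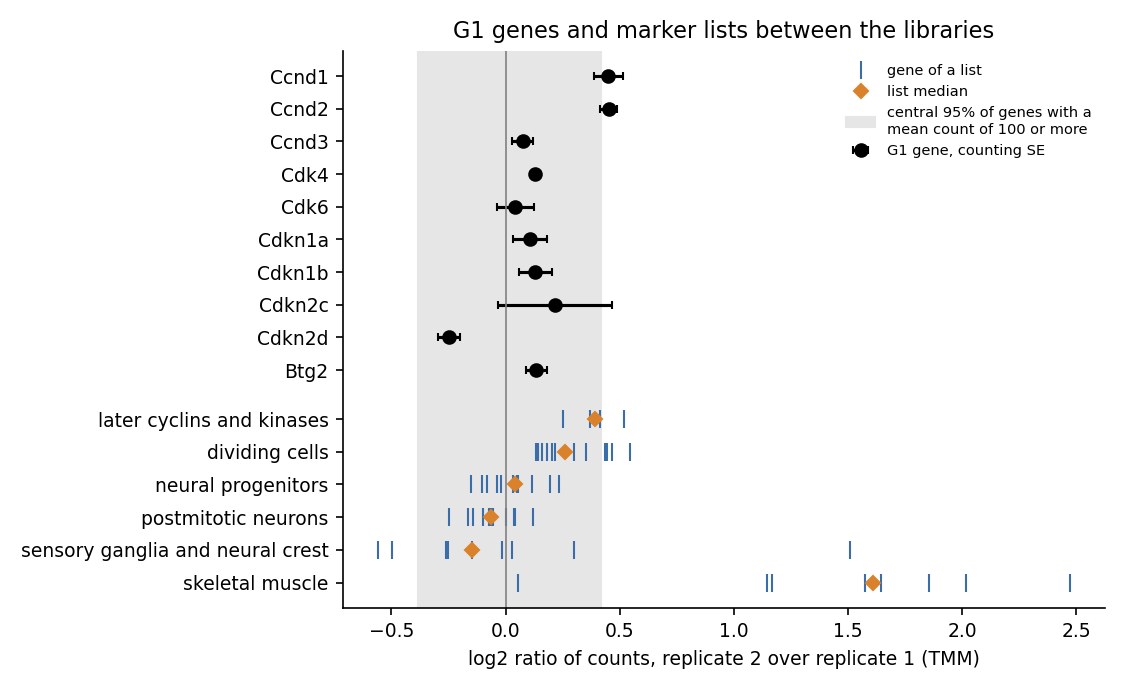
Log2 ratio of counts, replicate 2 over replicate 1 (horizontal axis), for the 10 G1 genes (points, bars for the counting SE) and for genes of 6 lists (ticks, diamonds for list medians), with the central 95% of genes whose mean count was at least 100 in grey. Ccnd1 and Ccnd2 lie at 0.45, to the right of the grey band that ends at 0.42, and all 12 markers of dividing cells lie above 0.

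None of the 10 genes differed by 2-fold or more at an adjusted p under 0.05, where 2.25% of 17428 genes did, 1.46% higher and 0.792% lower in replicate 2. By the same exact binomial test, 5 of the 10 had an unadjusted p under 0.05, and 5 an adjusted p under 0.05 at any fold, where 24.6% of genes did. These 5 were Ccnd1, Ccnd2, Cdk4 and Btg2, higher in replicate 2 as were 12.8% of genes, and Cdkn2d, lower as were 11.8%. Cdk4 and Btg2 gave ratios of 0.13 each, and the other 5 genes gave 0.04 to 0.22. Among 12846 genes averaging at least 100 counts, Ccnd1 and Ccnd2 both lay at percentile 97.9 of the ratio and Cdkn2d at 7.43.

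For Ccnd1 the TPM differed more between the libraries than the counts. Its TPM ratio was 1.67, or 0.74 on the log2 scale, against 1.37 in scaled counts, while its short model Ccnd1-202 went from 10.25 to 20.83 TPM. For Ccnd2, with 1 transcript, the TPM ratio was 1.43. For all 10 genes, the library with the higher TPM was also the one with the higher scaled count.

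Lists of dividing cells and of later cyclins and kinases were higher in replicate 2, like Ccnd1 and Ccnd2, as the plot of ratios by list shows. Ccnd3 differed less, with a ratio of 0.07. Of 12 markers of dividing cells, 12 had a ratio above 0 with a median of 0.26, 10 passed an adjusted p under 0.05 in the exact binomial test and 0 reached 2-fold. Their summed TPM was 348 and 434. All 4 later cyclins and kinases passed at any fold, with a summed 152 and 206 TPM. Pathway genes as a whole had 34 of 52 ratios above 0 and a median of 0.05, with 19 higher and 1 lower at an adjusted p under 0.05 and 0 of either at 2-fold. Over all tested protein-coding genes, 7551 of 14852 ratios were above 0, with a median of 0.0035. Of these genes, 2030 were higher and 1869 lower at an adjusted p under 0.05 in the exact binomial test.

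Tissues other than neural tube moved too. Skeletal muscle markers summed to 124 TPM in replicate 1 and 217 in replicate 2, and 7 of 8 were higher by 2-fold or more (Myod1, Myog, Myf5, Acta1, Tnnt1, Tnni1 and Myh3), all but Actc1, the highest at 75.32 and 81.15 TPM. Cartilage and sclerotome markers summed to 131 and 192 TPM, with Col2a1 highest and Pax1 higher by 2-fold or more. Surface ectoderm markers summed to 13.0 and 29.1 TPM, with Perp highest and 6 of 8 higher by 2-fold or more (Krt14, Krt5, Krt8, Krt18, Epcam and Trp63). The part of these tissues in the cyclin values was not tested.

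Neural lists moved less or the other way. Postmitotic neuron markers summed to 5606 and 5419 TPM, with 4 of 12 ratios above 0, and neural progenitor markers to 3263 and 3176 TPM, with 7 of 12 above 0. The progenitor sum includes Fabp7, which went from 2060.82 to 1934 TPM. By TPM, 9 of the 12 progenitor markers were higher in replicate 2, and their median ratio in counts was 0.04. Sensory ganglion and neural crest markers summed to 821 and 665 TPM, with 3 of 9 above 0, and Prph was the highest. Erythroid markers, led by Hba-a2, summed to 10048 and 10303 TPM. Endothelial markers, led by Cldn5, mesenchymal markers, led by Col3a1, and microglial markers, led by C1qb, held no gene past 2-fold. Whether the makeup of the libraries bears on Cdkn2d was not tested.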

How the data were processed

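Gene and transcript tables of 2 total RNA-seq libraries were used as deposited. Per the labels the build is mm10, and per the authors' notes the annotation is GENCODE M4. For the aligner, the quantifier and the strand setting, no name is given in the sources used here. Expected counts, as deposited, estimate how many reads each feature drew, and were rounded for the test. The deposited TPM scale abundance to a fixed sum over all features, spike-ins included, which held 13.0% and 12.6% of TPM in replicates 1 and 2. FPKM, deposited beside TPM, entered 1 set of alternatives. Isoform percent, also a deposited column, gives each transcript's share of its gene's TPM. Genes with no name held 0.201% and 0.216% of counts and stayed in the totals.

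Names, transcript types and coordinates came from GENCODE M21 (GRCm38), which named 42462 of 43346 genes. Detection was set at 1 TPM in both libraries. Libraries were compared by an exact binomial test (two-sided) on rounded counts against TMM effective sizes (edgeR 4.0.16, R 4.3.3), over genes averaging at least 10 counts, adjusted after Benjamini and Hochberg, and called at an adjusted p under 0.05 and 2-fold. edgeR's quasi-likelihood test needs a contrast with replicates, which 1 group does not give. A prior count of 0.5 was added for log2 ratios. DESeq2 1.42.0 gave alternative size factors. Tables were handled in Python 3.11.15 with pandas 2.3.3 and NumPy 2.4.6, tests were run in SciPy 1.17.1, and plots were drawn with matplotlib 3.10.9. The test was checked on simulated counts that held counting noise only, so the check does not cover further variation between libraries. A transcript was called uncertain where the posterior SD exceeded 10% of its count. A count of 0 was taken to allow 3 counts, which covers counting error only.

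The genes and the lists were chosen with earlier results of these data known. The rule named all 10 genes, the highest and the lowest gene of each pathway list, the highest of each marker list, any called gene, and transcripts with a mean isoform percent of 10 or more. Of the marker genes this rule names, 1 is not reported here. Alternatives were other units, scalings, thresholds and filters, each library left out, and 2 treatments of transcript length added later.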

Additional observations from a re-analysis of the deposited data

How the results depend on the processing

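Directions and calls of the 10 genes stayed on the same side under each alternative scaling, count and filter run. Over the longest coding transcript, Ccnd1 held 15.6% and Ccnd2 29.4% of the D cyclin sum, Cdk4 97.3% of its pair, Cdkn1a 69.5%, Cdkn2d 98.2% and Cdkn1a with Cdkn1b 27.4% of the sum of 4 inhibitors, with Cdk4 and Cdk6 at 3.59 times the D cyclins and Ccnd1 at 0.531 of Ccnd2. With coding transcripts only, the D cyclin shares were 13.8% (Ccnd1), 28.7% (Ccnd2) and 57.5% (Ccnd3), Cdk4 held 96.6%, the kinases stood at 2.74 times the D cyclins and Ccnd1 at 0.481 of Ccnd2. Both treatments were chosen after seeing the data. At 1.5-fold in place of 2-fold, 437 genes were called higher and 272 lower, in place of 254 and 138. In 21 further cases a single gene's level or main transcript share moved past the SD between libraries, by these length treatments, by rescaling TPM to mouse genes only, or by the posterior mean isoform percent, which put Ccnd3-205 at 84.2%. Leaving out 1 library gives the other library's value, as printed in the report, so neither the overlap of neighbouring genes nor the test could then be formed. In FPKM, 8 of 9 neighbouring pairs were apart, in place of 7, and all 10 genes were at 1 FPKM or more in both libraries; single levels in FPKM are in another unit and were not set against TPM. No paired analysis was possible because the series has a single group. Depth limits Cdkn2c most, with 77 and 59 counts.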
